A study of Mus musculus with 5 samples.

Results

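Among the cells sorted from the wall of the mouse midbrain aqueduct, 196 carried high levels of Sspo and differed widely in Fos, the immediate early gene that encodes one subunit of the transcription factor AP-1. The 65 of them with the most Fos are set here against the 65 with the least. Cells were chosen from the raw counts: a cell had to hold at least 500 CPM of Sspo (reads of the gene, scaled to 1000000 reads in the cell) and under 1000 CPM of Ccdc153, a gene of ciliated ependymal cells. This gave 196 of the 547 cells of the midbrain sample and of the 1473 cells in the series. The 196 cells were ranked by Fos CPM into a Fos-low group of 65 cells, a middle group of 66 and a Fos-high group of 65. Fos made the split, so its level is a description and nothing is supported with it.

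The study profiled single cells from the walls of the adult mouse ventricular system, and its title names Sox9 and Nfi factors in dopamine progenitors and in the maturation of ependymal cells. All cells described here came from 1 sample, mice of the genotype FoxJ1CreERT2 R26TdT, 3 months of age. This line carries a tamoxifen-inducible Cre recombinase driven by the promoter of Foxj1, a gene of cells with motile cilia, and a tdTomato reporter. The line was represented by 10 animals, 5 females and 5 males, and no label ties a well to an animal. No stimulus or treatment is labelled, so every group compared here shares genotype, age and tissue. Single cells were sorted into 96-well plates and turned into Smart-seq2 libraries, which cover whole transcripts and carry no molecular identifiers.

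The subcommissural organ is a secretory ependymal structure in the roof of the midbrain, where the third ventricle meets the aqueduct. Its cells make SCO-spondin, the very large glycoprotein encoded by Sspo, which is folded in the endoplasmic reticulum (ER), glycosylated in the Golgi and released into the cerebrospinal fluid, where it assembles into Reissner's fibre. Immediate early genes are transcribed within minutes of a signal, from promoters already occupied by factors such as CREB and SRF, without new protein synthesis. Fos, Jun and ATF family proteins pair to form AP-1, while ZFP36 degrades messages and DUSP1 inactivates MAP kinases, both as brakes on the response.

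The cells fitted the description of their rule. Sspo ran from 1051 to 35364 CPM with a median of 9615 CPM, and the highest Sspo level among midbrain cells with low Ccdc153 outside the rule was 21.2 CPM, so no cell lay near the Sspo limit. At the Ccdc153 limit, the highest cell inside held 971 CPM and the lowest outside 1022 CPM, and 16 cells were high in both genes and were left out. Spdef, a transcription factor of secretory epithelia and the other marker of this organ, was read in 100% of the Fos-low and of the Fos-high cells. Messages of ciliated cells were present as well, among them Foxj1 in 100% of the cells of both groups. Of 7 neuronal markers in the table, 0 reached 10 CPM, and together they summed to 16.1 CPM in Fos-low and 18.8 CPM in Fos-high cells. The 1 endothelial marker in the table, Kdr, was at 25.3 CPM in Fos-low and 4.50 CPM in Fos-high cells. Of 8 microglial markers, 1 reached 10 CPM and 5 were at 0 reads. Genes listed as markers of other glia and of choroid plexus were not absent. The 8 of 10 astrocyte markers at 10 CPM summed to 2344 and 2089 CPM, mostly Mlc1, with Aqp4 at 14.6 and 9.56 CPM. The 4 of 8 oligodendrocyte markers summed to 410 and 390 CPM, mostly Mal, with Mog at 0 and 0.0372 CPM, and the 3 of 6 choroid plexus markers to 1009 and 882 CPM, mostly Ttr. Their part in the results was not tested. The 5 mural and fibroblast markers summed to 11.3 and 4.43 CPM.

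Fos was read in nearly all of these cells, with 2 cells at 0 reads. Per cell it ran from 0 to 7447 CPM with a median of 4573 in the Fos-low group, from 7491 to 13726 CPM in the middle group, and from 13856 to 37191 CPM with a median of 16467 in the Fos-high group. Summed over cells, Fos stood at 3906, 10862 and 17843 CPM, and it took 0.391% of the reads of the Fos-low and 1.78% of those of the Fos-high cells. The cells on either side of the limits were therefore close together, and the Fos-low group is for the most part a group of cells with less Fos, not without it.

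Depth was alike in the groups, with a median of 746451 reads per cell in the Fos-low, 757938 in the middle and 776297 in the Fos-high cells, over a range of 115081 to 2393410. The median cell had 5023, 5305.5 and 5234 detected genes, and 4298, 4560.5 and 4328 after every cell was thinned to 100000 reads. Cells are not replicates and there was 1 sample, so no test was made and no p-value is given. As the spread within the sample, the comparison was repeated in blocks of 96 consecutive cell numbers, of which 6 of 7 held at least 4 cells of each group. With cell numbers taken as well order, blocks 1 to 5 fall in the first sequencing project and blocks 6 and 7 in the second. The groups were not evenly spread over the blocks: block 3 held 11 Fos-low cells and 1 Fos-high cell, and the median Fos level ran from 6083 CPM in block 3 to 13352 CPM in block 7. Nor were the sexes: 30 of 65 Fos-low cells (46.2%, exact binomial 95% interval 33.7 to 59.0) had reads of Y-linked genes and under 10 CPM of Xist, against 13 of 65 Fos-high cells (20%, 11.1 to 31.8). Such cells are called cells with Y-linked reads only. Cells with Xist reads only had no Y-linked reads. The Y-linked Ddx3y accordingly stood at 54.4 CPM in Fos-low and 7.98 CPM in Fos-high cells. The binomial intervals treat cells as independent, although cells share animals, so they do not cover the spread between animals. Block and sex also went together: blocks 1 and 5 held 21 and 20 cells with Xist reads only and 1 and 0 with Y-linked reads only, while blocks 3 and 4 held 0 and 2 of the former and 16 and 25 of the latter. The part of animal, sex and block in the differences below was not tested. Values with the ranking made inside each block, and within cells of one sex, are given for the main gene groups. In the splits by sex each group held only 31 cells with Xist reads only, or 19 with Y-linked reads only.

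The clearest difference outside Fos was in other immediate early genes. Differences are given as log2 of the summed CPM plus 1 in Fos-high cells over the same in Fos-low cells, and levels as summed CPM, which are not scaled by gene length, so that levels of different genes are not compared. CREB and SRF sites near the start are the textbook route by which Fos and its companions respond to a signal. For some of the members the results turn on, the 250 bases before the annotated start are therefore shown first. They are from RefSeq on GRCm38.p6, 5′ to 3′ on the strand of the gene: Fos at chr12:85473640-85473889, plus strand, Btg2 at chr1:134079156-134079405, minus strand, Junb at chr8:84978749-84978998, minus strand and Zfp36 at chr7:28379229-28379478, minus strand. Capitals mark a CRE core site (TGACG, either strand), a full cAMP response element (TGACGTCA, which contains the core site on both strands), an AP-1 site (TGANTCA, either strand) or a CArG box, the site of SRF.
Fos: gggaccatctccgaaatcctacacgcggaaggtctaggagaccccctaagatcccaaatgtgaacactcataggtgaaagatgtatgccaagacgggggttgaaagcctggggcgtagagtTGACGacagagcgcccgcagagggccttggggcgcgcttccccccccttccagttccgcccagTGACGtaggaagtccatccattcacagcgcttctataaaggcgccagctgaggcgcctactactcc
Btg2: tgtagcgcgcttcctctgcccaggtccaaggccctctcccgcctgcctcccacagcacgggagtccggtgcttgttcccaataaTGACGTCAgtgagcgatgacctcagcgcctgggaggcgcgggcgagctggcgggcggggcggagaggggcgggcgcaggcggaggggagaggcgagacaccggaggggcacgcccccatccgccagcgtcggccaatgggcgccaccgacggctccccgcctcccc
Junb: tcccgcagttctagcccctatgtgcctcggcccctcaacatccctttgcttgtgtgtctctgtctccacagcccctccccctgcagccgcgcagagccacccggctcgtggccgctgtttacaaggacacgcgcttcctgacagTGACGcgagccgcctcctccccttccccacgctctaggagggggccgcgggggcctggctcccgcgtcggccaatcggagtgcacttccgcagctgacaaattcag
Zfp36: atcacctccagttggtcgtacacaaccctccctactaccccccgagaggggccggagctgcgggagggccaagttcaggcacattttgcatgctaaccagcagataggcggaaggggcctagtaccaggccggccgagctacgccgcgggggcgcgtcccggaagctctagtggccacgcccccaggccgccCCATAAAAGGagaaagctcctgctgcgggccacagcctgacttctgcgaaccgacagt
In the windows printed, Fos carries a core site at 2 places, Btg2 the full element, Junb 1 core site, and Zfp36 a CArG box. A gene with several annotated starts was counted as holding a site if the window of any of them did. Over windows of 300 bases (250 before to 50 after the start), 13 of the 18 genes made up of Fos and the 17 immediate early genes at least 1.5-fold higher in Fos-high cells had an entry. Of these 13, 10 (76.9%) held a CRE core site, against 37.5% of the 7823 genes of at least 10 CPM with an entry. Fos, which made the split, is among these 13 and these 10, and the others were picked by their ratio in these data. The shares are therefore descriptions. The full element was in 2 of 13, Btg2 and Plk2 (15.4%, against 3.81%), the CArG box in 2 of 13, Srf and Zfp36 (15.4%, against 1.5%), and the AP-1 site in 0 of 13 (against 5.79%). Jun and Gadd45g, also among the 13, held neither the core site nor any of these. The windows printed above all hold a marked site and do not stand for every member. Of the genes that meet the stricter rule given below, 25 higher and 31 lower ones had an entry. The core site was in 9 (36%) and 15 (48.4%) of them, and the full element in 1 (4%) and 1 (3.23%). The CArG box was in 1 (4%) and 0, and the AP-1 site in 2 (8%) and 3 (9.68%). Such matches describe letters, not bound sites.

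The AP-1 family was higher in the Fos-high cells beyond Fos itself. Of 14 members listed besides Fos, 12 were in the table and 7 reached 10 CPM in either group. Their median log2 ratio was 0.70, against -0.03 for all 10335 genes of at least 10 CPM. Of the 7, 5 were at least 1.5-fold higher and 0 at least 1.5-fold lower, where 14.3% and 16.9% of all those genes were, and 4 were higher in every block, where 1.29% of all genes were. The median was positive in each of the 6 blocks, from 0.51 to 1.52. It was 0.74 when the ranking was made inside each block, 0.80 within cells with Xist reads only and 0.73 within cells with Y-linked reads only.

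Junb, an AP-1 subunit that pairs with Fos (chr8:84974484-84978718 on GRCm38), was the member with the highest ratio. Per cell it ran from 0 to 2103 CPM with a median of 147 in Fos-low cells and from 0 to 4788 CPM with a median of 666 in Fos-high cells. The groups overlap over most of their range, while the Fos-high median was higher and Junb was read in 69.2% of the Fos-low and 95.4% of the Fos-high cells. Summed, it stood at 347 CPM (95% Poisson interval 342 to 352), 671.7 CPM in the middle group and 913 CPM (905 to 921), a log2 ratio of 1.39 with a range of 0.76 to 2.98 over the 6 blocks. Since several reads can stem from 1 molecule, these intervals cover counting error only. They are narrow beside the spread between blocks.

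Jun, the classical partner of Fos (chr4:95049034-95052222), had a per-cell median of 1282 CPM in Fos-low and 2600 CPM in Fos-high cells. It ran from 0 to 7787 CPM in the former and from 95.8 to 10390.5 CPM in the latter, so that no Fos-high cell lacked Jun while the upper ends of the groups overlap. Its log2 ratio was 0.90, with 0.16 to 1.85 over the blocks. Atf3, a stress-induced member that acts mostly as a repressor, had a median of 1192.6 CPM in Fos-low and 4657 CPM in Fos-high cells, with highest cells of 15432 and 18794 CPM. Its log2 ratio was 0.70, and 0.67 to 4.19 over the blocks. Fosb, the closest relative of Fos, was at a median of 660 CPM in Fos-low, 1326 CPM in the middle and 1327 CPM in Fos-high cells, with a log2 ratio of 0.60 between the outer groups. Jund, the subunit that most cells keep at a steady level, was at 79.0 and 81.0 CPM, a log2 ratio of 0.04.

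**Figure D1:**
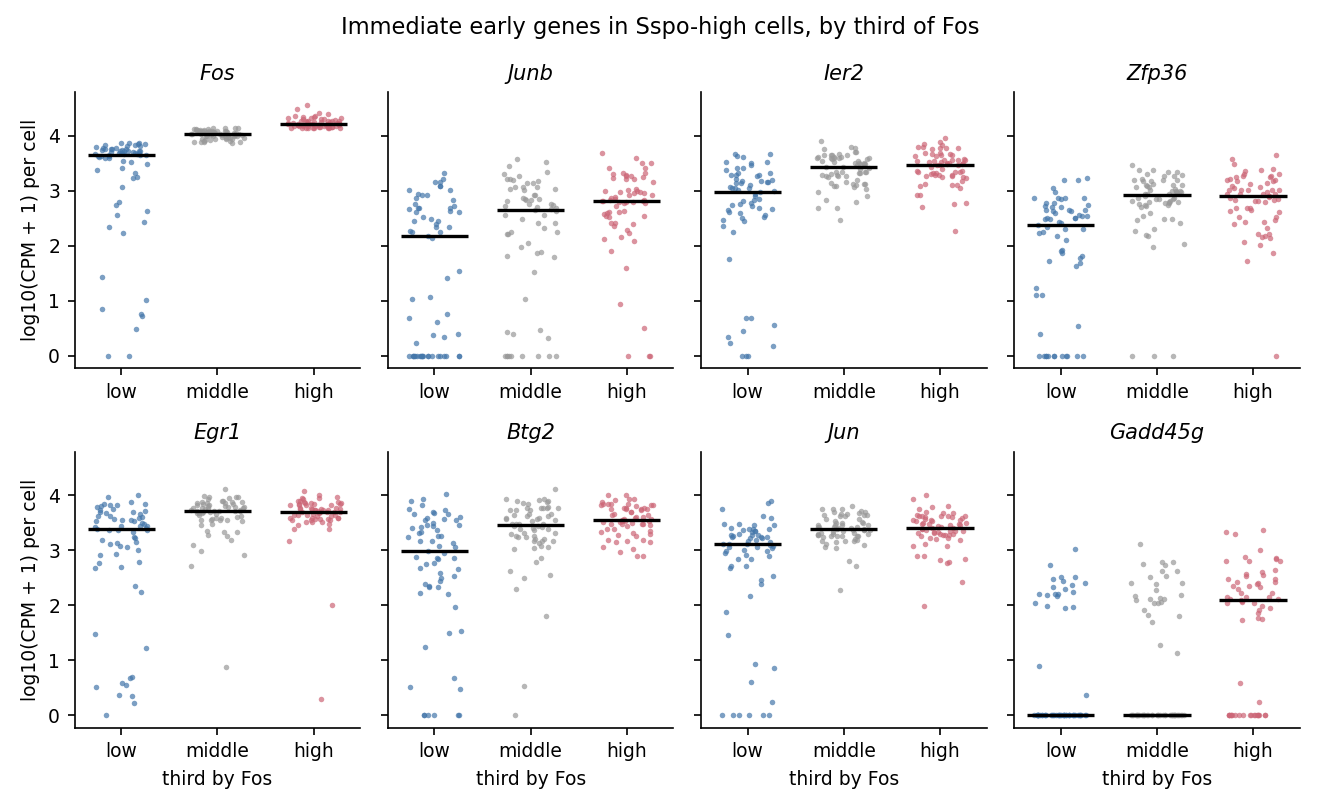
Each point is 1 of the 196 Sspo-high cells, placed by its Fos group (x) and its log10 of CPM plus 1 (y), with a black line at the group's median. Most Fos-high cells hold the immediate early genes shown at high levels, while part of the Fos-low group lies near 0 in several of them. Fos made the groups.

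The other immediate early genes showed the same direction less uniformly. Of 45 listed, 43 were in the table and 32 reached 10 CPM, with a median log2 ratio of 0.35. Of the 32, 12 were at least 1.5-fold higher and 2 at least 1.5-fold lower, where 14.3% and 16.9% of all genes were. In every block 7 were higher, where 1.29% of all genes were. The median was positive in all 6 blocks, from 0.49 to 1.29, and was 0.55 with the ranking inside blocks, 0.84 in cells with Xist reads only and 0.57 in cells with Y-linked reads only. Among the 15 members of at least 100 CPM, 9 were 1.5-fold higher, where 4.45% of the 2474 genes at that level were, and 1 was 1.5-fold lower, where 5.78% were.

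Ier2, a short-lived nuclear regulator (chr8:84661331-84662852), had a per-cell median of 937 CPM in Fos-low, 2678 in the middle and 2959 in Fos-high cells. The Fos-low cells ran from 0 to 4716 CPM and the Fos-high cells from 186 to 9129 CPM. Its log2 ratio was 1.28, with 0.33 to 2.01 over the blocks. Zfp36, which encodes tristetraprolin, a protein that marks messages for decay (chr7:28376784-28380253), had medians of 243, 834 and 810 CPM. The middle and Fos-high groups thus lay together above the Fos-low group, and the log2 ratio was 1.45, with 0.45 to 3.51 over the blocks.

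Egr1, a zinc finger transcription factor, had a median of 2481 CPM in Fos-low cells, 5242 in the middle and 5102 in Fos-high cells, a log2 ratio of 0.90. Btg2, an antiproliferative factor (chr1:134075170-134079120), had medians of 990, 2910 and 3612 CPM. Its lowest Fos-high cell held 792 CPM while the Fos-low cells reached down to 0, and its log2 ratio was 0.93, with 0.70 to 2.19 over the blocks. Gadd45g, a growth arrest and DNA damage gene (chr13:51846678-51848468), was read in 33.8% of Fos-low and 70.8% of Fos-high cells, with a log2 ratio of 1.55. Ccn1, a matricellular protein induced by serum and by stretch, was at 291 and 685 CPM summed, but was read in 44.6% and 49.2% of the cells, so a few cells with up to 8276 CPM in the Fos-low and 10586 CPM in the Fos-high group carry much of it.

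Several well-known members did not differ by much. The nuclear receptor gene Nr4a1 was at 1282 CPM in Fos-low and 1330 CPM in Fos-high cells, the zinc finger gene Klf6 at 307 and 320 CPM, and the eIF2 phosphatase subunit gene Ppp1r15a at 551 and 588 CPM. The 2 members that were lower were Tob1, an antiproliferative gene, at 300.04 and 177 CPM, and Plk3, a stress-responsive kinase gene, at 13.8 and 0.837 CPM. Plk3 was read in 20% and 4.62% of the cells.

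For Id1, an inhibitor of basic helix-loop-helix factors, the middle group was highest: 555, 1649 and 1101 CPM. Hes1, a Notch effector, was at 531, 798 and 893 CPM.

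Over all 196 cells, the genes whose level ordered the cells most like Fos were immediate early genes. Ranked by Spearman's rank correlation with Fos among the 7006 genes of at least 20 CPM that were read in at least 25% of the cells of either group, 8 of the first 10 and 10 of the first 20 were on the AP-1 or other immediate early list, which together held 30 of the 7006. The first were Ier2 at 0.56, Zfp36 at 0.48, Egr1 at 0.47, Btg2 at 0.45 and Jun at 0.43. Those on neither list among the first 10 were Dusp1 at 0.40 and Actb, the beta-actin gene, at 0.39. The cells share a sample, their animals and a read total, so these are descriptions.

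The cells with the least Fos were mostly, not uniformly, low in these genes. In the Fos-low group 15 cells held under 1000 CPM of Fos, a limit chosen after the values were seen, and 50 held at least 1000. These 15 cells came from all 7 blocks, with at most 3 in any block, and 7 had reads of Xist only and 4 of Y-linked genes only. In 11 of the 15, Junb was under 10 CPM, against 17 of the other 50. Atf3 was under 10 CPM in 11 of 15 against 4 of 50, Jun in 9 of 15 against 1 of 50, and Egr1 and Ier2 each in 8 of 15, against 1 and 2 of 50. Fewer of the 15 were that low in Nr4a1 (7, against 8 of 50) and Btg2 (4, against 5 of 50). The per-cell median of Egr1 was 3.88 CPM in the 15 cells and 3066 CPM in the other 50. Some of the 15 were high in single members: 1 cell from block 3 with 562.8 CPM of Fos held 12220 CPM of Atf3 and 5616 CPM of Btg2.

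Genes of the organ did not share 1 pattern in the same 15 cells. Sspo, which the rule set to a minimum, had a median of 10815.5 CPM in them and 8952 CPM in the other 50, and Spdef had medians of 1090 and 1623 CPM. Car3, which encodes carbonic anhydrase 3, was at 416 CPM summed over the 15 cells and 1044 CPM over the other 50. Their median number of detected genes was 4911, against 5195 in the other 50.

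The difference in immediate early genes did not rest on those 15 cells alone. With them left out and the remaining 181 cells split again into groups of 60 at the ends, the Fos-low group reached up to 8704 CPM of Fos and the Fos-high group began at 14002 CPM. Junb then had a log2 ratio of 1.23, Zfp36 of 1.04, Ier2 of 0.99, Btg2 of 0.75 and Gadd45g of 1.45. For Egr1 the ratio was 0.59 where it was 0.90 with all cells, for Jun 0.57 where it was 0.90, and for Atf3 0.53 where it was 0.70. The median of the AP-1 list was 0.53, with 2 of 7 members past 1.5-fold where 5 were with all cells. That of the other immediate early list was 0.29, with 12 of 35 members higher and 4 lower. Among all 10338 genes in that split, 1569 were higher and 1784 lower.

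The list of MAP kinase feedback genes depended on how cells were ranked. Dusp1, the nuclear MAP kinase phosphatase, was at 1638 CPM in Fos-low, 3735 CPM in the middle and 4313 CPM in Fos-high cells, a log2 ratio of 1.40 that was positive in 5 of 6 blocks. Dusp6, an ERK phosphatase, was at 73.7 and 72.9 CPM, and Dusp14 at 149 and 151 CPM. Of the list's 9 members at 10 CPM or more, 2 were 1.5-fold higher and 0 lower, where 14.3% and 16.9% of all genes were. The list's median was -0.02. With the ranking inside each block, the median was 0.65 and 5 of 10 members were higher, and in cells with Xist reads only and with Y-linked reads only the median was 0.73 and -0.03. Of 13 members of the cAMP and CREB list, 1 was higher (Sik1, a salt-inducible kinase gene, at 18.8 and 32.7 CPM) and 2 were lower (Creb1 and Crtc1), with a median of 0.05.

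In the NF-kB and cytokine list, 4 of the 7 members at 10 CPM were 1.5-fold higher and 1, Stat3, was lower, where 14.3% and 16.9% of all genes were. The median of 0.64 was positive in all 6 blocks (0.32 to 1.47). It was 0.48 with the ranking inside blocks, where 2 of 7 were higher, 0.31 without the 15 cells lowest in Fos, 0.98 in cells with Xist reads only and 0.11 in cells with Y-linked reads only. Nfkbia, the feedback inhibitor of NF-kB (chr12:55489410-55492647), was higher in each of the 6 blocks. Its per-cell median was 134 CPM in Fos-low, 199 CPM in the middle and 161 CPM in Fos-high cells, and its summed levels were 129, 289 and 218 CPM.

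**Figure D2:**
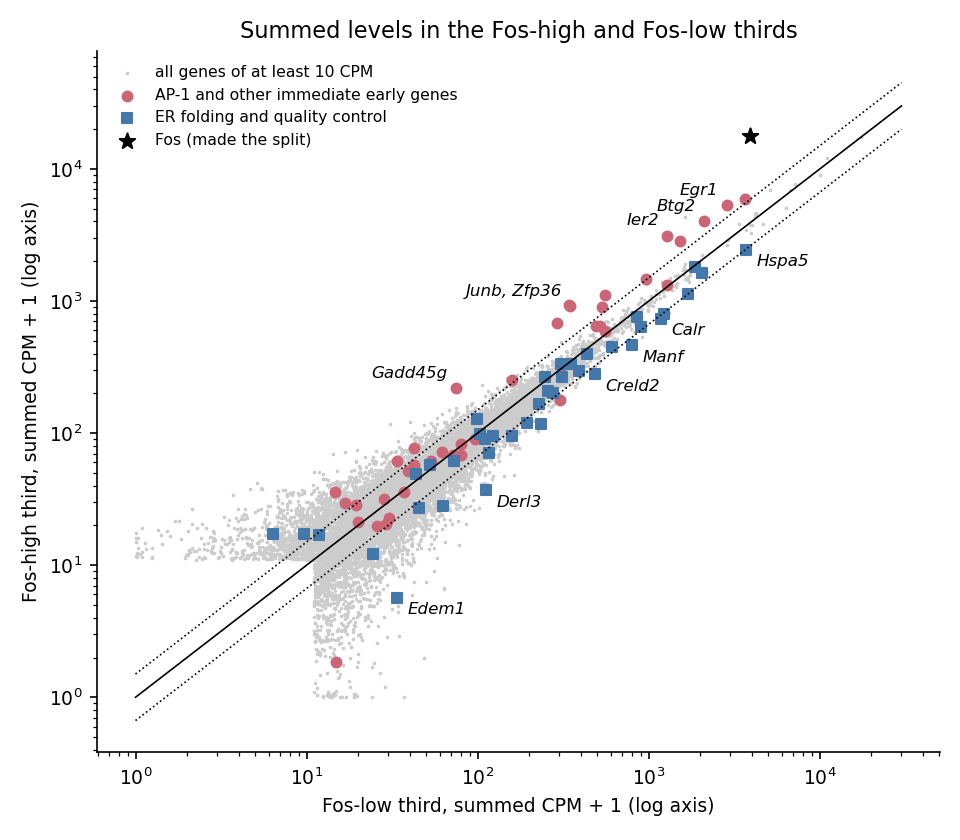
Each grey point is a gene of at least 10 CPM, placed by its summed CPM plus 1 in the Fos-low (x) and Fos-high (y) group on log axes, with a solid line at equality and dotted lines at 1.5-fold. Red points are AP-1 and other immediate early genes and blue squares ER folding genes, and the wide cloud at low levels shows how far genes with few reads scatter.

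The organ's own product differed little between the groups. Sspo (chr6:48448229-48501250), which the rule used, had a per-cell median of 9262 CPM in Fos-low, 10751 in the middle and 8704 in Fos-high cells, and its summed levels were 9999, 10765 and 8985 CPM. The log2 ratio was -0.15, small but below 0 in all 6 blocks (-0.51 to -0.00). Spearman's rank correlation between Sspo and Fos over the 196 cells was -0.07. Spdef (chr17:27714352-27728955) was at 1636, 1804 and 1913 CPM, with a log2 ratio of 0.22 that ran from -0.88 to 0.75 over the blocks. Ttr, which encodes the thyroid hormone carrier transthyretin, varied from cell to cell over the whole range in every group, from 0 to 7892 CPM in Fos-low and from 0 to 4718 CPM in Fos-high cells, and its ratio ran from -3.15 to 3.25 over the blocks.

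Of 35 secreted products listed, 26 reached 10 CPM. Their median log2 ratio was -0.17, with 1 at least 1.5-fold higher and 4 lower. The higher one was Timp3, a metalloproteinase inhibitor, at 37.2 and 73.0 CPM, where 1 Fos-high cell held 6635 CPM. The lower ones were Apoe, a lipid carrier, at 223 and 103 CPM, Apod, another lipid carrier, at 45.0 and 23.0 CPM, Lgals1, a lectin, at 117 and 62.0 CPM, and the extracellular chaperone gene Clu at 486 and 322 CPM. The 4 lower of 26 are a share near the 16.9% of all genes. Of these 4, only Lgals1 was below 0 in all 23 alternatives. The Apod ratio of -0.94 was 0.66 in cells with Y-linked reads only, the Apoe ratio of -1.10 was 0.52 within the second sequencing project and -0.07 without the 15 cells lowest in Fos, and in cells with Y-linked reads only the Clu ratio was 0.29. Cst3, a secreted protease inhibitor (chr2:148871722-148875692), was at 6338, 5302 and 5047 CPM. Psap, a lysosomal and secreted activator protein, was at 3883, 3893 and 3753 CPM, and Wfdc2, a secreted whey acidic protein, at 1673, 1666 and 1496 CPM.

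Car3, carbonic anhydrase 3 (chr3:14863512-14872523), was at 912, 740 and 529 CPM and lower in all 6 blocks, from -2.44 to -0.04. Per cell, however, the medians were 311, 328 and 305 CPM, so the summed difference lies in cells above the middle of each group. In cells with Xist reads only its ratio was 0.06, and in cells with Y-linked reads only -1.59. A list of secretory cell regulators such as Spdef also holds the enzyme gene Car3. Over its 8 members that reached 10 CPM the median was 0.11, although 5 of the 6 block medians were below 0. Xbp1, the transcription factor that expands the ER, was at 576, 472 and 423 CPM.

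**Figure D3:**
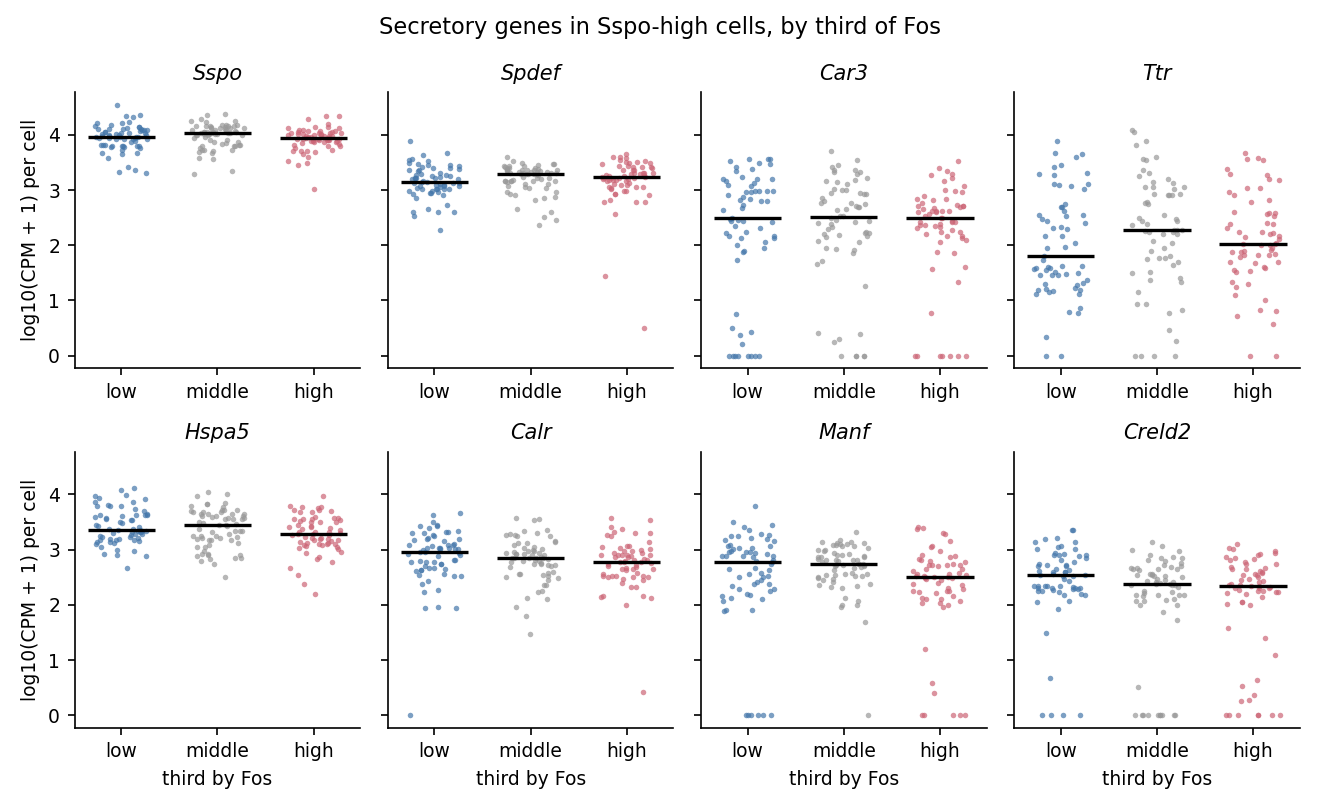
Each point is 1 of the 196 Sspo-high cells, placed by its Fos group (x) and its log10 of CPM plus 1 (y), with a black line at the group's median. Sspo and Spdef lie at like levels in the 3 groups, Ttr and Car3 spread over the whole range in each, and the medians of the ER chaperone genes Calr, Manf and Creld2 step down from the Fos-low to the Fos-high group with wide overlap.

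Genes of protein folding in the ER were lower in the Fos-high group when summed over its cells, by less and less evenly than the immediate early genes were higher. All 39 members of the folding and quality control list were in the table and reached 10 CPM. Their median log2 ratio was -0.41, with 15 at least 1.5-fold lower and 2 higher, where 16.9% and 14.3% of all genes of at least 10 CPM were. From Fos-low through middle to Fos-high, 21 of the 39 declined step by step, as 2057 of the 10335 genes did. Of the 29 members of at least 100 CPM, 26 were below 0, as 1355 of all 2474 genes at that level were, and 11 were 1.5-fold lower, where 5.78% were. Summed over the list, the levels were 19755, 17329 and 14706 CPM, and the list's median share of a cell's reads was 1.72%, 1.62% and 1.40%.

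Hspa5, which encodes BiP, the main ER chaperone (chr2:34771970-34777547), ran from 458 to 13188 CPM per cell in the Fos-low group and from 159 to 9359 CPM in the Fos-high group, with medians of 2304 and 1936 CPM. The middle group had the highest median, 2779 CPM, while the summed levels were 3717, 3060 and 2441 CPM, so the order of the groups differs between the median cell and the sum. Within blocks, Hspa5 was higher in Fos-high cells in 4 of 6 and lower in 2 (-0.87 to 0.46), although its ratio over all cells was below 0 in all 23 alternatives (-0.95 to -0.33). Calr, the lectin chaperone calreticulin, had per-cell medians of 903, 712 and 600 CPM and summed levels of 1176, 915 and 735 CPM. Manf, a secreted chaperone cofactor induced by ER stress, had medians of 607, 556 and 313 CPM. Creld2, another such secreted ER protein, had medians of 347, 241 and 221 CPM. The log2 ratios of these 4 genes were -0.61, -0.68, -0.79 and -0.79. Calr and Creld2 were lower in 4 of 6 blocks and Manf in 5. In all 4 genes the groups overlap widely.

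The other members that were lower included Hsp90b1, the ER form of HSP90 (1687 and 1122 CPM, though higher in 4 of 6 blocks), the disulphide isomerase Pdia6 (1232 and 802 CPM), the BiP cofactors Sdf2l1 (232 and 116 CPM) and Dnajb11 (157 and 94.9 CPM), and Hyou1, a large ER chaperone (62.1 and 27.1 CPM). The degradation genes Derl3 (111 and 35.8 CPM) and Edem1 (32.7 and 4.67 CPM) had ratios of -1.61 and -2.57, but were read in 32.3% and 21.5% of the Fos-low cells, and Derl3 was lower in 3 blocks and higher in 3. Canx, the membrane lectin calnexin (852 and 761 CPM), P4hb (348 and 334 CPM) and Herpud1, a degradation factor (1852 and 1812 CPM), were within 1.5-fold. The 2 higher members, Edem3 and Pdia5, were at 5.32 and 16.2 CPM and at 8.63 and 16.2 CPM.

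The list as a whole varied between blocks too. Its median was below 0 in 4 of 6 blocks and ran from -0.44 to 0.08. Pdia3, a disulphide isomerase at 2060 and 1632 CPM, was the only member lower in every block, where 1.41% of all genes were. With the ranking inside each block the median was -0.30, without block 3 it was -0.28, within cells with Xist reads only -0.32, within cells with Y-linked reads only -0.30, and without the 15 cells lowest in Fos -0.36. For the mean of per-cell CPM, which gives every cell the same weight, it was -0.24. With the ranking inside each block, 10 of the 39 members were 1.5-fold lower and 1 higher, as 1706 and 1441 of 10287 genes were. Of the 15 lower genes, 13 had a promoter entry. A CRE core site was in 7 of these (53.8%), against 37.5% of the genes of at least 10 CPM with an entry. An AP-1 site was in 1 of them (7.69%, against 5.79%), Hspa5, before its RefSeq start. That RefSeq start lies inside the gene span given above, so the window before it overlaps the span in part. The Zfp36 window lies wholly inside the span given for that gene. The 250 bases before the Hspa5 start (chr2:34771840-34772089, plus strand) are shown with the same marks, since it is the folding gene with the AP-1 letters.
Hspa5: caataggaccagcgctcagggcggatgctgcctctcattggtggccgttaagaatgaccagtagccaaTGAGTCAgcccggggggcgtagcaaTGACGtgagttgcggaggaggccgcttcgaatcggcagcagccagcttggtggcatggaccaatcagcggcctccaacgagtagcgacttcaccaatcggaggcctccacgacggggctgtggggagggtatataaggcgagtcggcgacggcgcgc

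The remaining steps of the secretory route lay closer to 0. The ER translocation and signal peptide list had a median of -0.16 over 31 members, with 1 of them 1.5-fold higher (Srp72, of the signal recognition particle) and 0 lower. The ER to Golgi list had -0.16 over 37 members, with 2 higher (Sec24b and Mia3) and 1 lower (Sec16a), and its median was below 0 in all 6 blocks. The Golgi and glycosylation list had -0.09 over 30 members, with 8 higher and 7 lower, and the exocytosis and calcium list 0.09 over 24, with 5 higher and 5 lower. Of all genes of at least 10 CPM, 14.3% were 1.5-fold higher and 16.9% lower. In these 4 lists the members past 1.5-fold stood mostly at low levels. Examples are Man1a2, a Golgi mannosidase, at 14.0 and 42.4 CPM, and Itpr3, a calcium release channel, at 93.3 and 30.0 CPM. In the Golgi and exocytosis lists, 2 of 7 and 1 of 10 members of at least 100 CPM were lower and 0 higher. Of all genes at that level, 5.78% were lower and 4.45% higher.

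Stress regulators outside the folding list showed no common direction. Of 12 members of the ER stress list, 1 was higher (Eif2ak3) and 3 were lower (Trib3, Atf5 and Cebpg). Of all genes, 14.3% were higher and 16.9% lower. With the ranking inside blocks, however, 3 of 11 ER stress members were higher and 0 lower. Atf4 was at 358 and 412 CPM and Ddit3 at 236 and 314 CPM. Of 20 heat shock genes, 0 were higher and 4 lower, a share near the 16.9% of all genes, and with the ranking inside blocks 1 was higher and 2 lower. Among these 4, Cryab, a small heat shock protein, was at 47.5 and 0.967 CPM, but was read in 15.4% and 6.15% of the cells, and 1 Fos-low cell held 1770 CPM. Hsp90ab1, the cytosolic HSP90, was at 3961 and 3267 CPM.

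**Figure D4:**
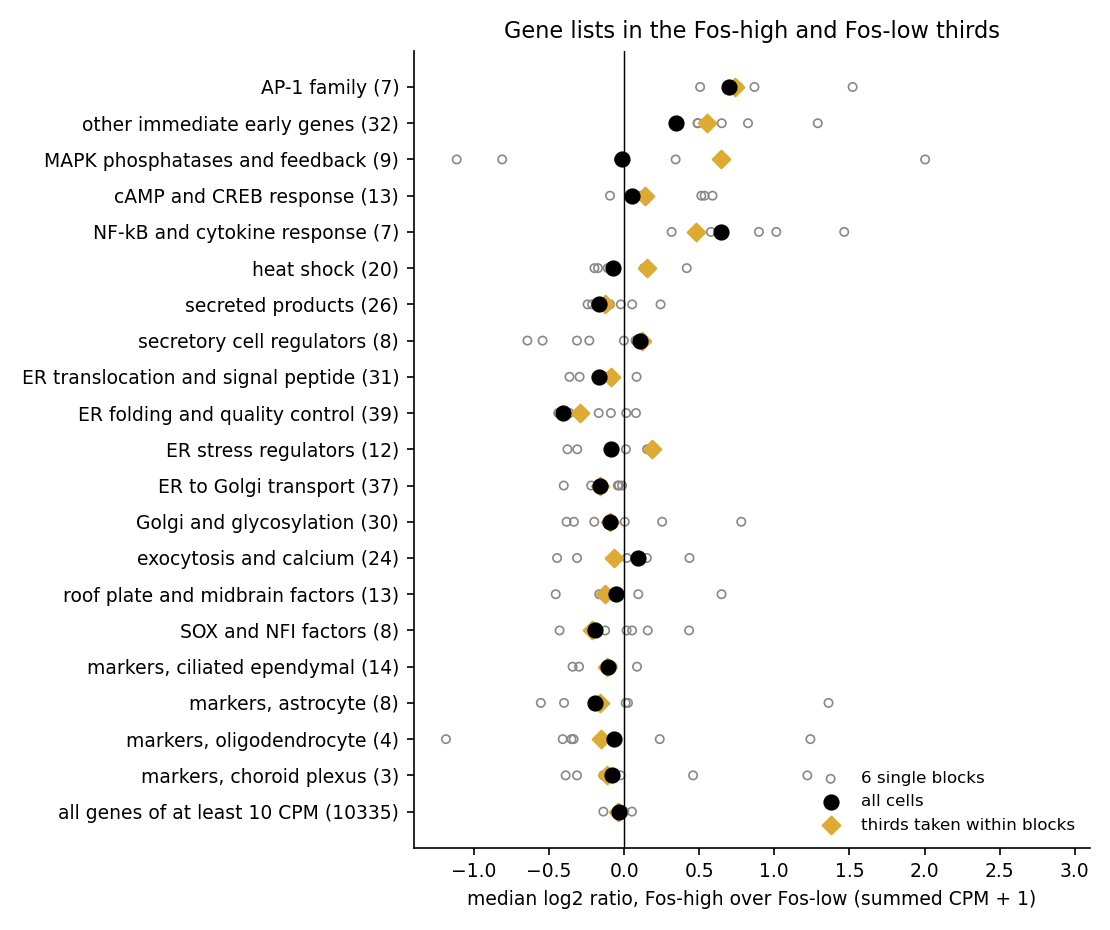
Median log2 ratio (x) of each gene list (y, with the number of members of at least 10 CPM). Black points are all cells, open circles each of the 6 blocks, and yellow diamonds the ranking made inside each block. The AP-1, other immediate early and NF-kB lists lie above 0 in all 6 blocks, while the ER folding list lies below 0 in 4 of 6.

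Most factors that mark the identity of these cells were within 1.5-fold. Over 13 roof plate and midbrain factors the median was -0.05, with 1 higher and 0 lower. Of all genes of at least 10 CPM, 14.3% were 1.5-fold higher and 16.9% lower. Msx1, a roof plate homeobox gene, was at 914 and 876 CPM, Zic4 at 487 and 469 CPM, and Otx2 at 346 and 323 CPM. Sox9, one of the factors the study is about, was at 1335, 1553 and 1489 CPM, Nfia had 237, 199 and 195 CPM, and the levels of Nfix were 470, 405 and 436 CPM. Of the 8 SOX and NFI members at 10 CPM, 0 were higher and 2 lower, Sox6 (31.7 and 18.4 CPM) and Sox5 (26.6 and 16.02 CPM), with a median of -0.19. Over 14 ciliated markers the median was -0.11, with 0 higher and 2 lower, Rarres2 and Dnah11. Rarres2, the chemokine-like chemerin, was at 23.7 and 7.94 CPM and lower in all 6 blocks, with 1 Fos-low cell at 1127 CPM, while its per-cell medians were 1.30 and 1.65 CPM.

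Across all genes, few met a stricter rule: at least 2-fold, at least 20 CPM and reads in at least 25% of the cells of the higher group, the same direction in all 6 blocks, and at least 1.5-fold without the top cell. Of 7006 genes, 33 (0.471%) were higher and 36 (0.514%) lower. By 2-fold in summed CPM alone it was 193 (2.75%) and 271 (3.87%). Of the 33, 5 were immediate early genes: Junb, Ier2, Zfp36, Gadd45g and Ccn1. When the ranking was made inside each block, 29 genes were higher and 30 lower, and only 8 of the 33 and 9 of the 36 were among them. With any 1 block removed, the counts were 42 to 71 higher and 47 to 88 lower, with 5 blocks to satisfy where the block left out was not block 3. Nothing is read from the number of genes that met the rule, and the genes named next are a description of these cells.

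Among the 15 with the highest ratios, most were read in under 50% of the cells of either group. Sct, the hormone secretin (chr7:141278330-141279133), was at 29.8, 75.8 and 116 CPM and was read in 23.1% of Fos-low and 35.4% of Fos-high cells. Its highest cells held 451 and 3446 CPM, and its log2 ratio was 1.93 with all cells, 2.51 with the ranking inside blocks and 1.69 without the 15 cells lowest in Fos. Tsc1, the hamartin gene that restrains mTOR signalling, was at 2.29, 30.3 and 22.01 CPM in the Fos-low, middle and Fos-high groups, and Idh1, cytosolic isocitrate dehydrogenase, at 15.7 and 71.4 CPM. Plxnb1, a semaphorin receptor, was at 18.6 and 73.5 CPM, Cyth1, an ARF exchange factor, at 10.9 and 49.6 CPM, and Txnrd2, mitochondrial thioredoxin reductase, at 11.5 and 44.1 CPM.

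The others were Mllt10, Mblac2, Mrnip, Slc31a2, Commd2 and Mrs2, at 2.98 to 24.5 CPM in Fos-low and 20.2 to 72.6 CPM in Fos-high cells, and Gm17259. The last is annotated as an antisense transcript (chr13:81778773-81783749) and was at 4.19 and 25.2 CPM. Smart-seq2 libraries do not keep the strand, so its reads cannot be told from those of an overlapping gene. Zfp36 and Gadd45g complete the 15.

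Among the 15 with the lowest ratios, Ncs1, a neuronal calcium sensor gene (chr2:31245823-31295989), was read in the most Fos-low cells after Hdlbp: 56.9% of Fos-low and 40% of Fos-high cells, at 161 and 46.8 CPM, a log2 ratio of -1.76 with -3.46 to -0.40 over the blocks. Hdlbp, the RNA-binding protein vigilin, was at 141 and 46.7 CPM, read in 61.5% and 46.2% of the cells. Kptn, an mTOR-restraining KICSTOR subunit gene (chr7:16119895-16127516), was at 62.7, 52.5 and 5.73 CPM, and was read in 35.4% and 13.8% of the cells. Sord, sorbitol dehydrogenase, was at 22.7 and 5.84 CPM, and Zyx, the focal adhesion protein zyxin, at 37.9 and 11.4 CPM. The others described were Ndor1, Zbtb25, Mier3, Narf, Nt5dc1, Mark2, Mical3, Nfkbib and Zfp956, each at 33.3 to 56.4 CPM in Fos-low and 3.44 to 17.1 CPM in Fos-high cells.

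The ciliated ependymal cells of the same sample give a comparison. By the opposite limits (Ccdc153 at least 1000 CPM, Sspo under 500 CPM) there were 301 of them, and the same ranking gave groups of 100. Their Fos-low group ended at 4.97 CPM with a median of 2.13 CPM, and their Fos-high group began at 974.99 CPM with a median of 5848 CPM. The Fos-low ependymal cells therefore had almost no Fos, while the Fos-low Sspo-high cells had a median of 4573 CPM, and the sizes of the ratios in the 2 cell classes are not on one footing.

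In ependymal cells the AP-1 list had a median of 1.84, with 5 of 8 members 1.5-fold higher and 1 lower. The other immediate early list had 1.51, with 26 of 31 higher and 0 lower. Of 10024 genes, 13.8% were higher and 11.0% lower. Junb went from 5.89 to 923 CPM between their groups and Egr1 from 8.96 to 1975 CPM, and the summed Junb level in the Fos-high group was 923 CPM in ependymal and 913 CPM in Sspo-high cells. The ER folding list had a median of 0.08 in ependymal cells, with 2 of 35 members higher and 1 lower, where 11.0% of all genes were lower. Whether the folding genes differ between the cell classes in their relation to Fos was not tested. Of the 33 genes higher in Fos-high Sspo-high cells, 29 reached 10 CPM in ependymal cells, where 9 were 1.5-fold higher and 2 lower. Of the 36 lower ones, 33 did, with 5 higher and 4 lower.

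**Figure D5:**
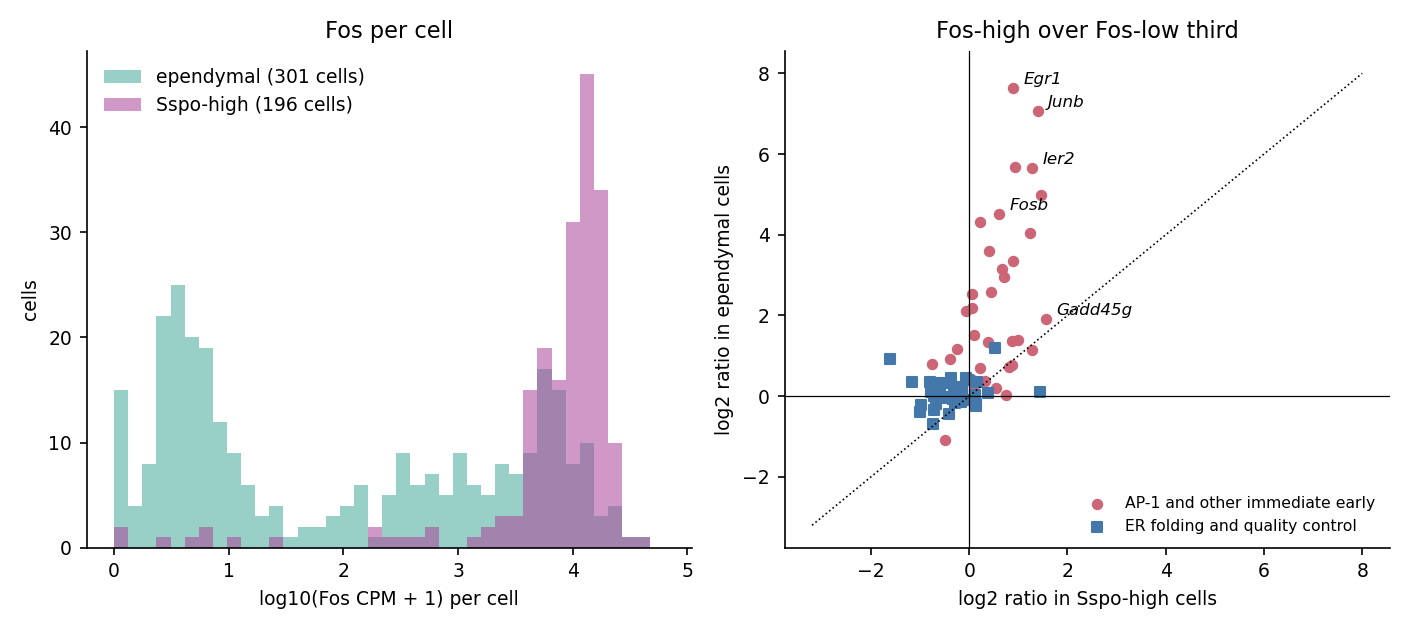
Left, the number of cells (y) by log10 of Fos CPM plus 1 (x) for 301 ependymal and 196 Sspo-high cells. Right, the log2 ratio of Fos-high over Fos-low group for immediate early (red) and ER folding genes (blue squares) in Sspo-high (x) and ependymal (y) cells, with a dotted line at equality. Most ependymal cells hold little Fos, most Sspo-high cells hold much, and several immediate early genes lie far above the line.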

How the data were processed

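Smart-seq2 libraries of sorted single cells were read from 2 tables. The authors deposited raw read counts per gene and cell, and a normalized table that matched log2(count / size factor + 1) in 100% of its values within 0.01. The submitters' processing notes name STAR 2.3.1o, Seurat 3 and mm10. The counting tool, annotation and strand setting are not given in the sources used here. Of 13 mitochondrially encoded genes listed, 0 were found under their listed names. Their share of reads, a measure of RNA quality, is therefore not given.

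Counts were summed over the cells of each group and divided by the group's total to give CPM, with exact Poisson 95% intervals. Ratios are log2 of CPM plus 1. Read totals of the 196 cells ran from 115081 to 2393410, which makes counting error small beside the spread between blocks of 96 cell numbers. The cells form 1 sample, so no test was made. Named genes were the 15 highest and 15 lowest ratios meeting the stricter rule, plus members of the gene lists. Some genes that this names are not reported here. The members and lists were chosen with earlier results of these data known. Doublets were not called, but 1 alternative dropped the 2% of cells in which most genes were detected. Of 16347 gene names, 15255 matched 1 GENCODE vM21 name on GRCm38. Scripts ran in Python 3.11.15 with numpy 2.4.6, pandas 2.3.3, scipy 1.17.1 and matplotlib 3.10.9, and were tested on simulated data. Alternatives changed the split, the cells, the scaling, the filters and the blocks.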

Additional observations from a re-analysis of the deposited data

How the results depend on the processing

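No paired analysis was possible because all compared cells come from 1 sample, so no replicate number is shared between groups. The count of genes meeting the stricter rule depended most on the choices: 33 higher and 36 lower with all cells became 139 and 118 within the first sequencing project, 972 and 1013 within the second, 62 and 72 with the outer 25% of cells at each end, 17 and 8 with 50% at each end, and 709 and 685 with Ccdc153 under 100 CPM. They were 56 and 60 with the minimum at 5 CPM and 10% of cells together, 265 and 340 in cells with Xist reads only, and 720 and 966 in cells with Y-linked reads only, and 72 were higher in the deposited normalized values. Leaving out 1 block gave 42 to 71 higher and 47 to 88 lower. The number of blocks to satisfy changed with these choices, from 6 to 4 in the first project, 3 in cells with Xist reads only, 5 with 25% at each end and 7 with 50%, and its part in the counts was not separated. In the second project, in cells with Y-linked reads and with Ccdc153 under 100 CPM, fewer than 3 blocks held enough cells and the requirement on blocks dropped out. The AP-1 median of 0.70 was 1.20 in the second project, 1.15 with Ccdc153 under 100 CPM and 2.33 in the normalized values. The other immediate early median of 0.35 was 0.67 with 25% at each end, 0.72 with Ccdc153 under 100 CPM, 0.84 in cells with Xist reads only and 0.75 over members of at least 100 CPM. The ER folding median of -0.41 was -0.20 with 50% at each end and -0.67 with Ccdc153 under 100 CPM. The secreted median of -0.17 was 0.038 in the normalized values. The cause of these changes was not tested. Thinning every cell to 100000 reads gave 30 higher and 31 lower genes, of which 11 and 14 were among the 33 and 36.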

Other observations

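Outside the gene lists, and chosen after their values were seen, Actb, the beta-actin gene, was at 5093, 5695 and 6932 CPM in the Fos-low, middle and Fos-high cells and higher in 6 of 6 blocks, with a log2 ratio of 0.44. Sertad1, a cell cycle cofactor, was at 86.0, 88.5 and 146 CPM and higher in 6 of 6 blocks. Dhrs7b, a peroxisomal reductase, was at 61.2, 82.6 and 138 CPM and higher in 6 of 6 blocks. Cox7b, a gene of respiratory complex IV, was at 168, 126 and 119 CPM, and Ndufb3, a gene of complex I, at 159, 171 and 115 CPM, with log2 ratios of -0.49 and -0.46.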
